A study of Homo sapiens with 4 samples.

Results

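The aldo-keto reductases described here are 8 human genes, AKR1A1, AKR1B1, AKR1B10, AKR1C1, AKR1C2, AKR1C3, AKR7A2 and AKR7A3, listed by symbol. Each gene was read from the probe sets annotated to that gene alone, and where there were several, the probe set with the highest mean intensity over all arrays stood for the gene. Of the 8 genes, 6 were measured in this way, among 19775 genes in all, and they carried 14 probe sets. AKR1A1 and AKR1B1 were not analysed here, because no probe set carried their names in the annotation used. The genes were proposed with earlier results of these arrays known, and the probe sets were chosen by mean log2 intensity over the 4 arrays, so that their values describe the family and are not independent evidence for it.

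The 4 arrays measured RNA of AGS, an established human gastric adenocarcinoma cell line, in 2 groups. The PRMT6-KO group (n = 2 arrays) carried a CRISPR/Cas9 knockout of PRMT6, made with a lentiviral lentiCRISPR v2 vector holding a single guide, followed by puromycin selection and limiting dilution to clones. The control group (n = 2 arrays) had wild-type PRMT6. The labels do not say which or how many clones gave the knockout arrays, whether the control cells received a vector or were cloned, or whether the arrays of a group came from separate cultures, so that p-values measure only the spread between these arrays and a difference between clones cannot be told apart from the knockout. PRMT6 is an arginine methyltransferase that marks histones and other proteins, and the comparison asks which transcripts differ without it.

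Aldo-keto reductases are soluble enzymes that use NADPH to reduce aldehydes and ketones to alcohols. Their substrates include sugars, retinaldehyde, toxic aldehydes from lipid oxidation, steroid hormones and prostaglandins. In gut epithelium and in many tumours AKR1B10 and the AKR1C genes are known as targets of NRF2, the transcription factor of the antioxidant response. The AKR1C genes lie side by side on chromosome 10 and are so alike in sequence that short array probes can read more than 1 of them.

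PRMT6 itself stood at a log2 intensity of 7.79 and 7.63 on the knockout arrays, against 8.03 and 8.11 on the control arrays. It was lower by 0.36 on the log2 scale (adjusted p = 0.043, limma), a call not kept when any 1 array was dropped, and the transcript was still measured in the knockout cells. The probe set was not placed relative to the guide, so it does not check the edit. All 9 gastric and simple epithelial markers lay above the level of the median gene (5.97), with mean log2 intensities of 10.84 and 10.86 on the knockout arrays and 10.82 and 10.78 on the control arrays. Behind these means ELF3 (1.05), KRT19 (0.61) and KRT8 (0.49) rose, CLDN7 (-0.65) and CLDN4 (-0.46, named after its value was seen) fell, and 4 did not pass, where 24.0% of all genes were called. ELF3 and KRT19 lost their calls without either knockout array, and KRT8 and CLDN7 when any 1 array was dropped. Of the markers of other cells, 7 fibroblast genes averaged 4.83 and 4.88 on the knockout arrays, against 4.17 and 4.35 on the control arrays. Of these 4 rose and none fell, where 12.4% of all genes rose and 11.5% fell. Only COL1A1 (1.56) among the fibroblast markers was above the median gene. COL1A1 was still called at 0.72 with the mean of its probe sets. The dim LUM (1.37) and COL3A1 (1.02) lost their calls with gene-specific probe sets (0.07 and 0.18) and without either knockout array. COL3A1 also lost its call without either control array, and FAP (0.36) lost its call under 7 of 9 alternatives. The 5 endothelial markers averaged 4.12 and 4.24, against 4.004 and 4.20, and none was above the median gene. The 5 measured immune markers averaged 6.05 and 5.67, against 6.23 and 6.22, and 2 of them, LYZ and CSF1R, were above it. CSF1R fell by 0.63 (adjusted p = 0.019, limma), a call not kept when any 1 array was dropped, and LYZ differed by -0.9998 without passing (adjusted p = 0.096). The part of other cell types in the results below was not tested. In bulk RNA, fewer cells expressing a gene and less RNA per cell cannot be told apart.

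In PRMT6-KO cells the family split in its directions. AKR1C3 was 8.51-fold higher, AKR1B10 was 5.04-fold lower, the brightest probe sets of AKR1C1 and AKR1C2 were about 2.17-fold lower, and AKR7A2 and AKR7A3 were 1.40-fold and 1.37-fold higher. With a limma threshold of 0.05 on the adjusted p, 3 of the 6 measured genes were called higher and 3 lower, where 24.0% of all genes were called, 12.4% higher and 11.5% lower. The groups were separate, with no overlap, for each of the 6 genes and for 58.2% of all genes. The median change of the 6 genes was -0.33 on the log2 scale, and that of all genes was -0.01. As the genes were chosen with results known, these counts are a description. When the arrays were set to equal means of reference genes, the all-gene median moved to -0.31. This gave 1112 genes higher and 9647 lower, against 2459 and 2281 on the deposited scale. Of the 11 reference genes, 6 were themselves called higher in knockout and 0 lower (median 0.33). Reference gene scaling therefore treats their rise as no change and is not a neutral check.

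**Figure D1:**
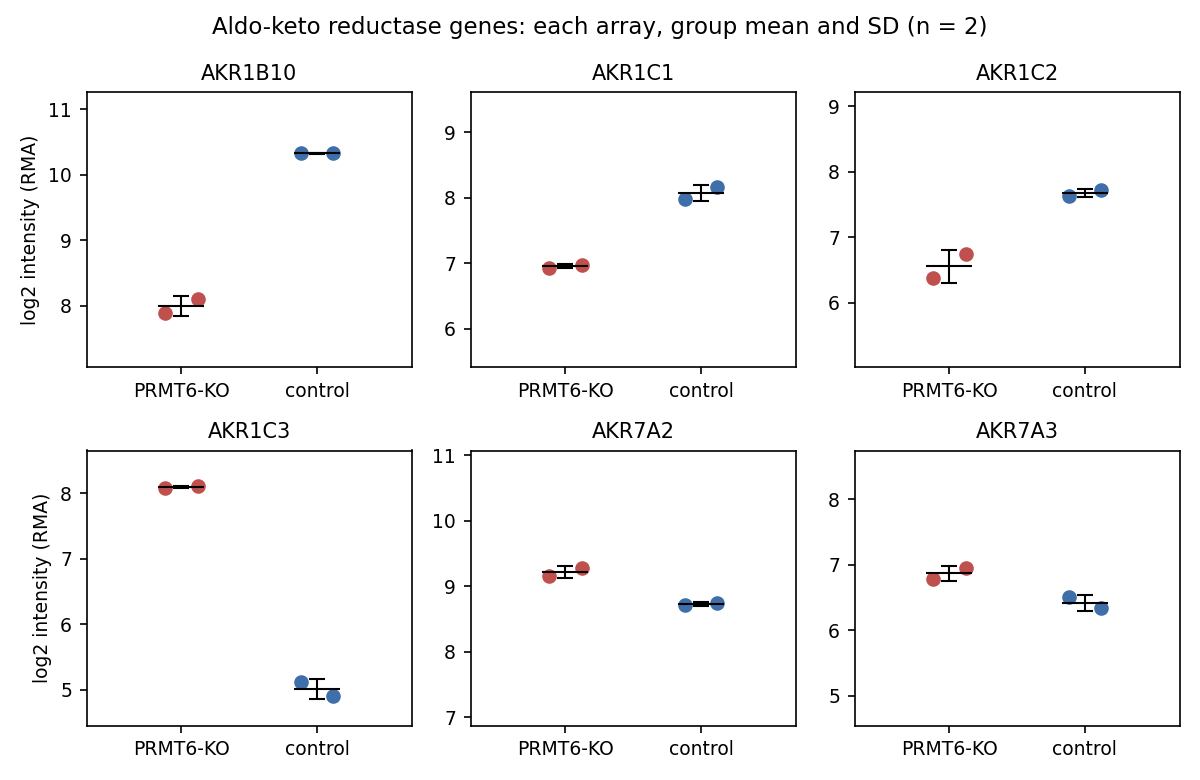
Log2 intensity (RMA) of the 6 measured aldo-keto reductase genes on each array; points are arrays, the horizontal line is the group mean and the error bar its SD (n = 2), and every panel spans the same number of log2 units. AKR1C3 is at 8.09 and 8.11 in PRMT6-KO and at 5.12 and 4.90 in control, AKR1B10 lies the other way round, and the AKR7A genes differ by less.

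AKR1C3 makes testosterone and oestradiol from weaker precursors and also acts as a prostaglandin F synthase. Its only named probe set, 209160_at, stood at 8.09 and 8.11 on the knockout arrays, against 5.12 and 4.90 on the control arrays. Both knockout arrays were high and both control arrays low, with no overlap and with a gap far wider than the spread within either group. The log2 difference was 3.09 with an SE of 0.10 (95% confidence interval 2.84 to 3.34, adjusted p = 0.00024, limma), and it ranked 14 among the rises of all 19775 genes. The control level lay below that of the median gene, and, as no detection calls were used, it may not have exceeded background, so the fold is approximate. In the fit over genes the call was kept under all 10 alternatives, with differences of 2.79 to 3.20. With its single probe set, the mean and gene-specific settings repeat the reported value. It entered the setting of brighter genes (mean over the arrays 6.55) only through its knockout level, so that setting is no separate support. The suffix of this probe set marks it, by the manufacturer's naming, as specific to its transcript.

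The start regions of AKR1C3, AKR1C1 and AKR1C2 are shown because the probe sets standing for these neighbouring paralogs went different ways, and that of AKR7A2 because it holds motif matches the others lack. The motifs were chosen with the array values known. Each window runs from 250 bases before to 50 bases after a RefSeq start site (GRCh38.p14, 5′ to 3′ on the strand of the gene), with matches in capitals. The capitals mark a CCAAT box (CCAAT) or TATA box (TATAAA) in the AKR1C windows, and the core of the antioxidant response element (TGACNNNGC) in the AKR7A2 window, on either strand. AKR1C3 has 2 such windows, at chr10:5048531-5048830 and chr10:5094164-5094463 on the plus strand. That of AKR1C1 is chr10:4963165-4963464 on the plus strand and that of AKR1C2 is chr10:5003808-5004107 on the minus strand. The AKR7A2 window shown is chr1:19312095-19312394 on the minus strand.
AKR1C3, upstream start: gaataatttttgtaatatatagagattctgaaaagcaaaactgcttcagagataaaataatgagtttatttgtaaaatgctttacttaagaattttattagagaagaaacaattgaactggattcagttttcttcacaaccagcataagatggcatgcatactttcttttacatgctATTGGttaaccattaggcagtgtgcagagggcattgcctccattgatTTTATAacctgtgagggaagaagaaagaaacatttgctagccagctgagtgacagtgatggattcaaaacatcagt
AKR1C3, downstream start: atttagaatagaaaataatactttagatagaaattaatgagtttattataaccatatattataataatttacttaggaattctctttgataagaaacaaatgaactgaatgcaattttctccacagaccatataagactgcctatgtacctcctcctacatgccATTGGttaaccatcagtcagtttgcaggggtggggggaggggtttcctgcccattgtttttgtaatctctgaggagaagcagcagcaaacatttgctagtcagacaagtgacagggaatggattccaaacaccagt
AKR1C1: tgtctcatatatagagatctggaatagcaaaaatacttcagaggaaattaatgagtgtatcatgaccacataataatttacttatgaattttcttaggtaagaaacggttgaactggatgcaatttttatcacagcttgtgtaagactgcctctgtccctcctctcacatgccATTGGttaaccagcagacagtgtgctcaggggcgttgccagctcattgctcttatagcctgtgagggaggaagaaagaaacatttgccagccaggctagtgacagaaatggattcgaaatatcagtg
AKR1C2: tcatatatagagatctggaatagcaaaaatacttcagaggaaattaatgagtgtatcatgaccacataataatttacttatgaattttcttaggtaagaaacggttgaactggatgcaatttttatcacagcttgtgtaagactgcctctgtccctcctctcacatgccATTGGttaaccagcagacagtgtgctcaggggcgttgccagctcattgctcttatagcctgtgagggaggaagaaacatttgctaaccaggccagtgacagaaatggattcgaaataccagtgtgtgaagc
AKR7A2: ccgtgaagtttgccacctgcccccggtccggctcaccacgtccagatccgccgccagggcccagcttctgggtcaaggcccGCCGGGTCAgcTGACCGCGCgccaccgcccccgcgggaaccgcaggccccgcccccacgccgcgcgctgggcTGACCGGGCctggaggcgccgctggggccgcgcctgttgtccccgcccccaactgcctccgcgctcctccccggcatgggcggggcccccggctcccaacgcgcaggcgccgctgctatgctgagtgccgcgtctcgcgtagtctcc

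The windows of AKR1C1 and AKR1C2 were 93.5% identical in a global alignment, whereas the upstream and downstream windows of AKR1C3 matched that of AKR1C1 at 74.7% and 71.6% of aligned positions. All 4 AKR1C windows held a CCAAT box on the opposite strand, inside the run attggttaacca that is the longest shared by all of them. A CCAAT box was found in 34.6% of all 35116 promoter windows. The upstream window of AKR1C3 was the only AKR1C window with a TATA box by these letters. The match lay on the strand opposite to the gene, and 11.5% of all windows held these letters on either strand. The core of the antioxidant response element, to which NRF2 binds, had 3 matches in the AKR7A2 window, and 13.3% of all windows held it. None was found in the windows of AKR1C1, AKR1C2, AKR1C3 and AKR7A3, or of the unmeasured AKR1A1 and AKR1B1. The bases G and C made up 77.3% of the AKR7A2 window, 68% of that of AKR7A3 and 33.7% to 41.3% of the AKR1C windows. The AP-1 site (TGANTCA, either strand) was in none of these windows and in 7.71% of all. These are letter matches in short windows and say nothing about binding elsewhere.

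AKR1C1 encodes a steroid dehydrogenase that inactivates progesterone. Its brightest probe set, 204151_x_at, stood at 6.93 and 6.97 on the knockout arrays, against 7.98 and 8.16 on the control arrays. The groups did not overlap, and the difference was -1.12 (SE 0.09, adjusted p = 0.0020, limma over genes). The other 4 probe sets of the gene did not pass in the fit over all 54613 probe sets. The next brightest, 216594_x_at, gave 7.00 and 6.96 in knockout against 7.22 and 7.49 in control, a difference of -0.38 (adjusted p = 0.12). The remaining ones, 217626_at, 1555856_s_at and 1555855_at, gave differences of 0.04, 0.04 and 0.07 with overlapping groups. All of these were dim, with means over the arrays of 4.51, 4.31 and 3.29, below the median gene.

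AKR1C2 encodes a close relative that inactivates dihydrotestosterone and binds bile acids. Its brightest probe set, 209699_x_at, stood at 6.38 and 6.74 on the knockout arrays, against 7.64 and 7.72 on the control arrays, a difference of -1.12 (SE 0.14, adjusted p = 0.0049, limma over genes). The knockout arrays differed more from each other than the control arrays did, but both lay below them. A probe set of nearly the same brightness, 211653_x_at, stood at 6.81 and 6.90 in knockout against 6.88 and 6.94 in control, with overlapping groups and a difference of -0.06 (95% confidence interval -0.29 to 0.17). The dim 244266_at was at 2.76 and 2.77 in knockout against 2.31 and 2.54 in control, a difference of 0.34 that did not pass (adjusted p = 0.13).

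The falls of AKR1C1 and AKR1C2 thus rested on 1 probe set each, both with the suffix _x_at, which by the manufacturer's naming marks probes that also match other sequences. The probe sequences were not analysed here, so the share of each paralog in these signals, including that of the AKR1C3 transcript that rose, was not tested. By mean over the arrays the rule separated 7.51 from 7.17 for AKR1C1 and 7.12 from 6.88 for AKR1C2, so that a small change in brightness would have chosen a probe set that did not pass. With the mean of all probe sets the differences were -0.27 for AKR1C1 and -0.28 for AKR1C2. With the brightest probe set lacking an _x_at or _s_at suffix, the dim 217626_at and 244266_at, they were 0.04 and 0.34. None of these differences passed. The AKR1C1 call was also lost without either knockout array (adjusted p = 0.054 and 0.055), and the AKR1C2 call without control 2 (0.054) or knockout 1 (0.052). A further probe set annotated jointly to AKR1C1 and AKR1C2 was dim, at 2.67 and 2.42 in knockout against 2.95 and 2.60 in control.

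**Figure D2:**
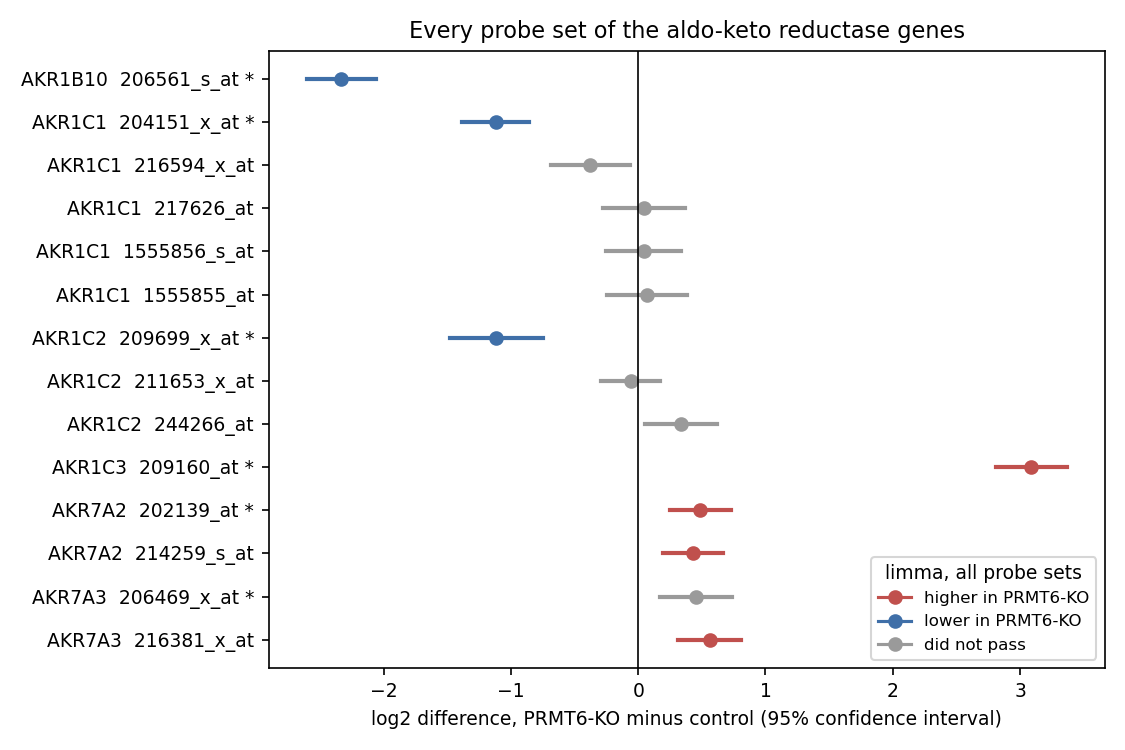
Log2 difference (PRMT6-KO minus control) with its 95% confidence interval for each of the 14 probe sets, from the limma fit over all probe sets; an asterisk marks the probe set that stands for the gene, and colour shows the call. AKR1C3 lies at 3.09 and AKR1B10 at -2.33, while the probe sets of AKR1C1 range from -1.12 to 0.07 and those of AKR1C2 from -1.12 to 0.34.

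AKR1B10 reduces retinaldehyde and toxic aldehydes and is known from intestinal epithelium and from several carcinomas. Its only named probe set, 206561_s_at, stood at 7.90 and 8.10 on the knockout arrays, against 10.34 and 10.33 on the control arrays. Every array was well above the median gene and the groups were far apart. The difference was -2.33 (SE 0.10, 95% confidence interval -2.58 to -2.08, adjusted p = 0.00042, limma), and it ranked 50 among the falls of all genes. In the fit over genes it was called under all 10 alternatives, with differences of -2.63 to -2.23. The suffix _s_at marks probes shared between transcripts, and the neighbouring AKR1B15, a close relative, was not analysed here.

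AKR7A2 and AKR7A3 encode aldehyde reductases that act on the dialdehyde of aflatoxin, and AKR7A2 also reduces succinic semialdehyde. AKR7A2 stood at 9.16 and 9.28 on the knockout arrays, against 8.71 and 8.75 on the control arrays, a difference of 0.49 (SE 0.08, adjusted p = 0.013, limma over genes). Its other probe set, 214259_s_at, gave 8.31 and 8.33 against 7.95 and 7.83, a difference of 0.43. Both knockout arrays lay above both control arrays in each probe set.

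AKR7A3 stood at 6.79 and 6.95 on the knockout arrays, against 6.50 and 6.34 on the control arrays, a difference of 0.45 (SE 0.10, adjusted p = 0.031, limma over genes). Its other probe set, 216381_x_at, gave 6.83 and 6.93 against 6.38 and 6.26, a difference of 0.56. The rule separated these probe sets by means of 6.65 and 6.60, and both carry the suffix _x_at, and whether other genes contribute to these signals was not tested. Dropping any 1 array ended the calls of both genes (adjusted p 0.066 to 0.12 for AKR7A2 and 0.066 to 0.20 for AKR7A3). Under reference gene scaling neither passed, with differences of 0.19 and 0.15 where the all-gene median was -0.31.

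In the fit over all probe sets, 4 of the 14 probe sets of the family rose, 3 fell and 7 did not pass, and 13.1% of all probe sets were called. The 4 that rose were those of AKR1C3, both of AKR7A2 and 216381_x_at of AKR7A3. The 3 that fell were the probe sets standing for AKR1B10, AKR1C1 and AKR1C2. In this fit these calls were not kept when any 1 array was dropped, which leaves a group with 1 array. The share of all probe sets called in those fits was not computed, so the loss cannot be set against theirs.

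**Figure D3:**
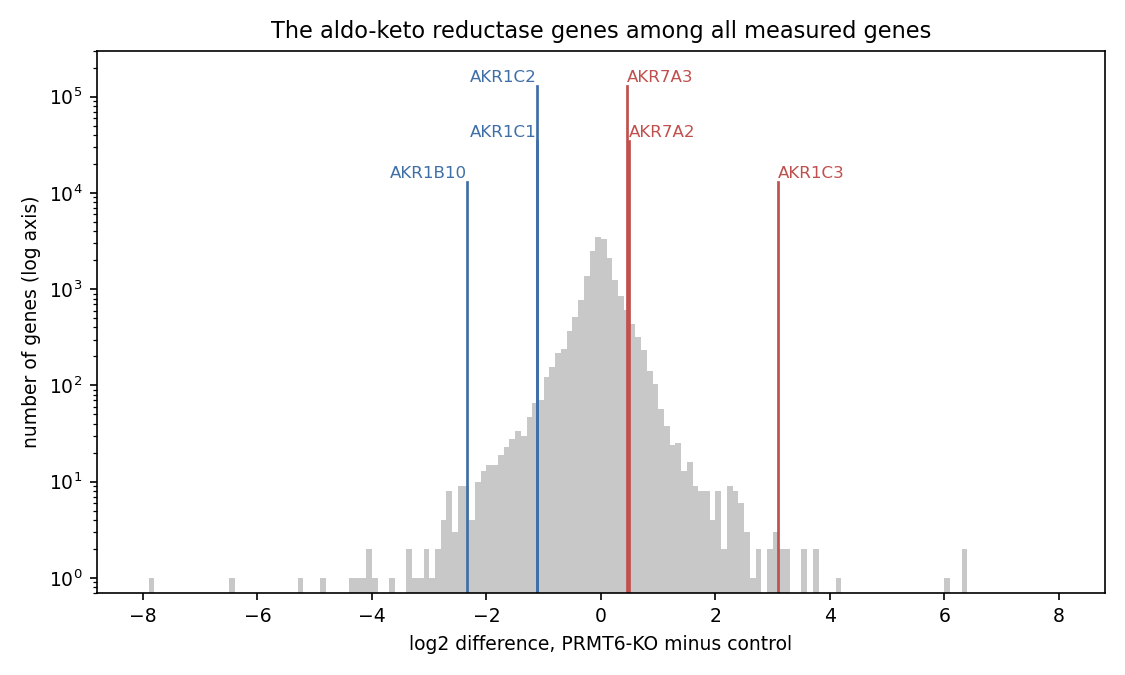
Histogram of the log2 difference (PRMT6-KO minus control) of all 19775 genes, with the number of genes on a log axis and the 6 aldo-keto reductase genes marked by vertical lines (red higher, blue lower). AKR1C3 at 3.09 and AKR1B10 at -2.33 lie in the sparse tails, while AKR7A2 at 0.49 and AKR7A3 at 0.45 lie in the flank of the main peak.

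Of 9 further genes of the aldo-keto reductase superfamily, 6 were measured and none passed the test in limma. An unadjusted p below 0.05 was found for 1 of the 6, and for 6890 of all 19775 genes. AKR1C4, a hepatic steroid dehydrogenase next to AKR1C3, was at 2.96 and 2.57 in knockout against 2.76 and 2.72 in control (difference 0.02). AKR1D1, the steroid reductase of bile acid synthesis, differed by -0.18, and AKR1E2, which reduces anhydrofructose, by -0.04. The potassium channel beta subunits KCNAB1, KCNAB2 and KCNAB3, which share the reductase fold, differed by 0.22, 0.07 and -0.04. All 6 had means below the median gene (2.05 to 5.52), so that a change near background could be missed, and under reference gene scaling AKR1D1 (-0.48), AKR1E2 (-0.34) and KCNAB3 (-0.34) passed as lower. The difference between these genes and the 6 described above was not tested.

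Of the 18 measured protein-coding genes nearest to the family on the chromosomes, 3 rose, 2 fell and 13 did not pass. Among all genes 24.0% were called. Around the AKR1C genes on chromosome 10, KLF6, a zinc finger factor, fell by 0.71 (adjusted p = 0.0070, limma), while PITRM1 (0.45), AKR1E2, AKR1C4, UCN3 (0.02) and TUBAL3 (-0.13) did not pass. Around AKR1B10 on chromosome 7 none of 6 neighbours passed in limma. An unadjusted p below 0.05 was found for 2 of the 6, and for 6890 of all 19775 genes. The differences of these neighbours were -0.12 for EXOC4, -0.15 for LRGUK, 0.25 for SLC35B4 and 0.08 for BPGM. CALD1 differed by -0.11 and AGBL3, whose arrays were spread widely, by 0.79. Around AKR7A2 and AKR7A3 on chromosome 1, MRTO4 (0.93), MICOS10 (0.82) and CAPZB (0.60) rose, UBR4 fell by 0.64, and EMC1 (0.23) and SLC66A1 (-0.09) did not pass. All 5 called neighbours lost their calls without either knockout array, KLF6 also without control 2, and UBR4 also with the mean of its probe sets (-0.12). MICOS10 was still called at 0.43 with the mean of its probe sets, and MRTO4 at 0.61 with its gene-specific probe set.

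NRF2 and the proteins that act with it were read because several of these reductases are its known targets. Of 7 measured regulators 5 fell, 0 rose and 2 did not pass in limma, where 11.5% of all genes fell and 12.4% rose. The median was -0.93 against -0.01 for all genes, and 0 regulators were higher at an unadjusted p below 0.05. MAFF, a small MAF partner of NRF2, stood at 8.48 and 8.92 on the knockout arrays, against 11.37 and 11.34 on the control arrays (difference -2.66). MAFG, another partner, fell by 1.58, SQSTM1, which binds KEAP1, fell by 1.34, and BACH1, a repressor of antioxidant genes, fell by 0.93. BACH1 lost its call without knockout 2. With the mean of probe sets BACH1 (-0.34), MAFG (-1.20) and SQSTM1 (-0.72) were all still called, at smaller differences. The gene for NRF2 itself, NFE2L2, was at 11.04 and 10.96 in knockout against 11.37 and 11.30 in control, a difference of -0.34 (adjusted p = 0.035, limma). This call was lost when any 1 array was dropped and with the mean of probe sets (-0.20). KEAP1, which marks NRF2 for degradation (0.18), and CUL3 (0.05) did not pass.

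Of 25 measured NRF2 targets outside the family 15 fell, 2 rose and 8 did not pass, with a median of -0.44. Over all genes 11.5% fell and 12.4% rose. SRXN1, a sulfiredoxin, stood at 8.97 and 9.10 on the knockout arrays, against 11.52 and 11.43 on the control arrays (difference -2.44, adjusted p = 0.00028, limma). HMOX1, the inducible haem oxygenase, was at 9.74 and 9.87 against 12.14 and 12.10 (difference -2.31). These differences were close in size to that of AKR1B10. The exporter ABCC3 fell by 1.92 and the thioredoxin reductase TXNRD1 by 1.60, with smaller falls of 0.68 for ABCC3 and 0.76 for TXNRD1 in the least of the alternatives. NQO1, a quinone reductase, fell by 0.67, a call lost without either knockout array. PRDX1 (0.34) and ABCC2 (0.38) were the targets that rose. Both lost the call when any 1 array was dropped and under reference gene scaling. Under that scaling 0 targets rose and 20 fell, where 1112 of all 19775 genes rose and 9647 fell. With knockout 1 left out, fewer targets and fewer of all genes were called lower. AKR1C3 went the other way from most of this list. The list was chosen with results known, and its difference from other genes was not tested.

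**Figure D4:**
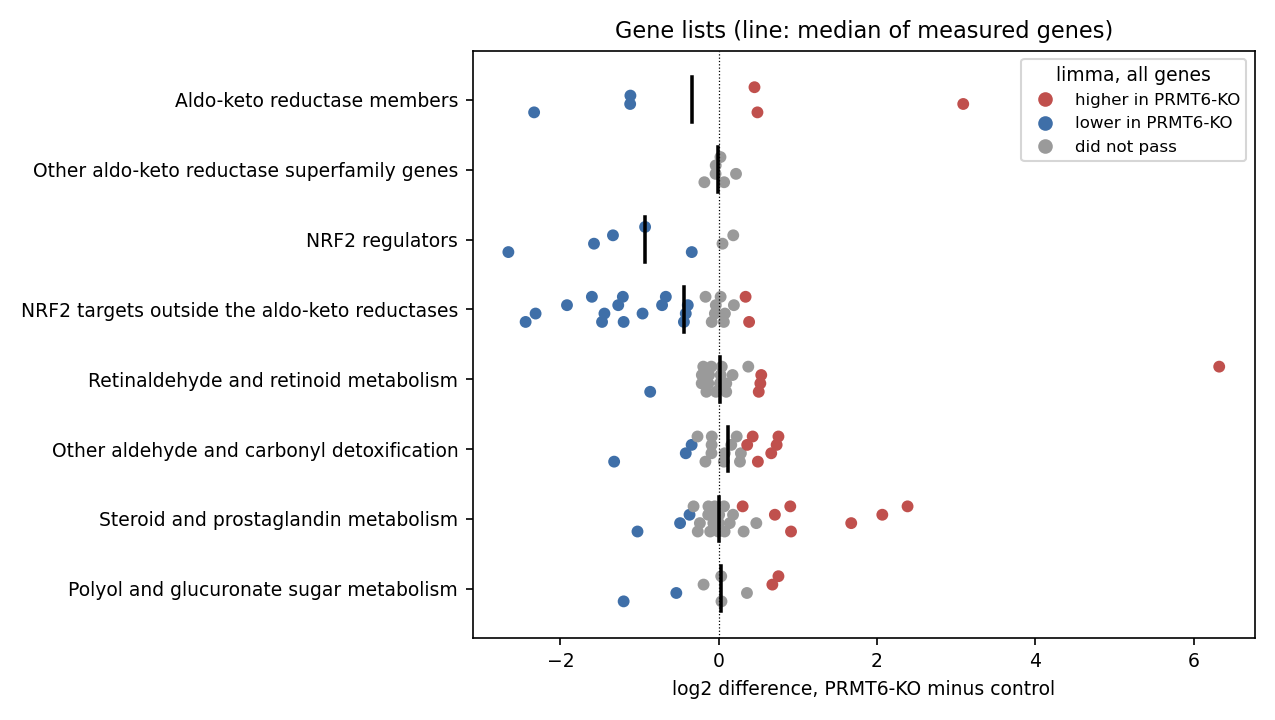
Log2 difference (PRMT6-KO minus control) of each measured gene in 8 gene lists; points are genes coloured by their limma call, and the vertical line is the median of the list. The NRF2 lists lie mostly left of 0 with medians of -0.93 and -0.44, and the other superfamily genes sit close to 0.

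Retinaldehyde is a substrate of AKR1B10 and of several AKR1C enzymes. Of 20 measured genes of retinoid metabolism, 4 rose, 1 fell and 15 did not pass (median 0.02). The share called was close to the 24.0% of all genes. ALDH1A1, which oxidizes retinaldehyde to retinoic acid, stood at 8.94 and 9.06 on the knockout arrays, against 2.65 and 2.70 on the control arrays (difference 6.32), from a control level not known to exceed background. RDH10, which makes retinaldehyde from retinol, fell by 0.87, while RDH11 (0.54), BCO1 (0.53) and RDH13 (0.51) rose. RDH10 and RDH13 lost their calls without either knockout array, RDH13 also without control 2, and RDH11 and BCO1 when any 1 array was dropped. Under reference gene scaling RDH11, BCO1 and RDH13 were not called. BCO1 was dim, with a mean of 3.73. With the mean of its probe sets RDH10 was still called at -0.39. RDH13 was not called with the mean of its probe sets or with its gene-specific probe set.

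Among 20 other genes of aldehyde and carbonyl removal, 6 rose, 3 fell and 11 did not pass (median 0.12). Over all genes 12.4% were called higher and 11.5% lower. PTGR1, which reduces prostaglandin and leukotriene products and lipid aldehydes, stood at 9.98 and 9.98 on the knockout arrays, against 11.31 and 11.30 on the control arrays (difference -1.32), and was called under all alternatives. CBR3 (-0.42) and HAGH (-0.34) were the other genes lower in knockout. DCXR, a xylulose reductase, rose by 0.75, ALDH1B1 by 0.73 and ALDH7A1 by 0.66. Except for PTGR1, each of these named calls was lost without either knockout array. ALDH1B1 and CBR3 also lost theirs without control 2, CBR3 with its gene-specific probe set, and HAGH when any 1 array was dropped.

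Of 28 measured genes of steroid and prostaglandin metabolism, in which the AKR1C enzymes act, 7 rose, 3 fell and 18 did not pass (median 0.0032). Calls over all genes stood at 12.4% higher and 11.5% lower. SULT1E1, the oestrogen sulfotransferase, stood at 4.72 and 5.56 on the knockout arrays, against 2.76 on both control arrays (difference 2.39), all below the median gene. HPGD, which inactivates prostaglandins, was at 9.87 and 9.92 against 7.78 and 7.89 (difference 2.07), and STS, the steroid sulfatase, at 7.41 and 7.40 against 6.07 and 5.39 (difference 1.67). PTGS2, the inducible cyclooxygenase, was at 6.75 and 7.41 against 8.10 and 8.12 (difference -1.03), and HSD17B8 (-0.49) and HSD17B12 (-0.37) were the other genes lower in knockout. HPGD was called under all alternatives, and STS was still called at 1.01 with the mean of its probe sets. HSD17B12 was dim, with a mean of 2.94, and was -0.13 when its probe sets were averaged, which did not pass (adjusted p = 0.37, limma). The call of STS was lost without either knockout array, and those of HSD17B8 and HSD17B12 when any 1 array was dropped. SULT1E1 lost its call without control 2, and PTGS2 without either control or knockout 1.

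Of 8 measured genes of polyol and glucuronate metabolism, where aldehyde and aldose reductases act, 2 rose and 2 fell (median 0.03). The share called among all genes was 24.0%. UGDH, which makes UDP-glucuronate and is also on the NRF2 list, fell by 1.20 under a call kept in all alternatives, and CRYL1 fell by 0.54. DCXR, already given, and the ketohexokinase KHK (0.68) rose, and KHK and CRYL1 lost their calls without either knockout array. The KHK call was also lost without control 2. KHK was still called at 0.44 with the mean of its probe sets.

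**Figure D5:**
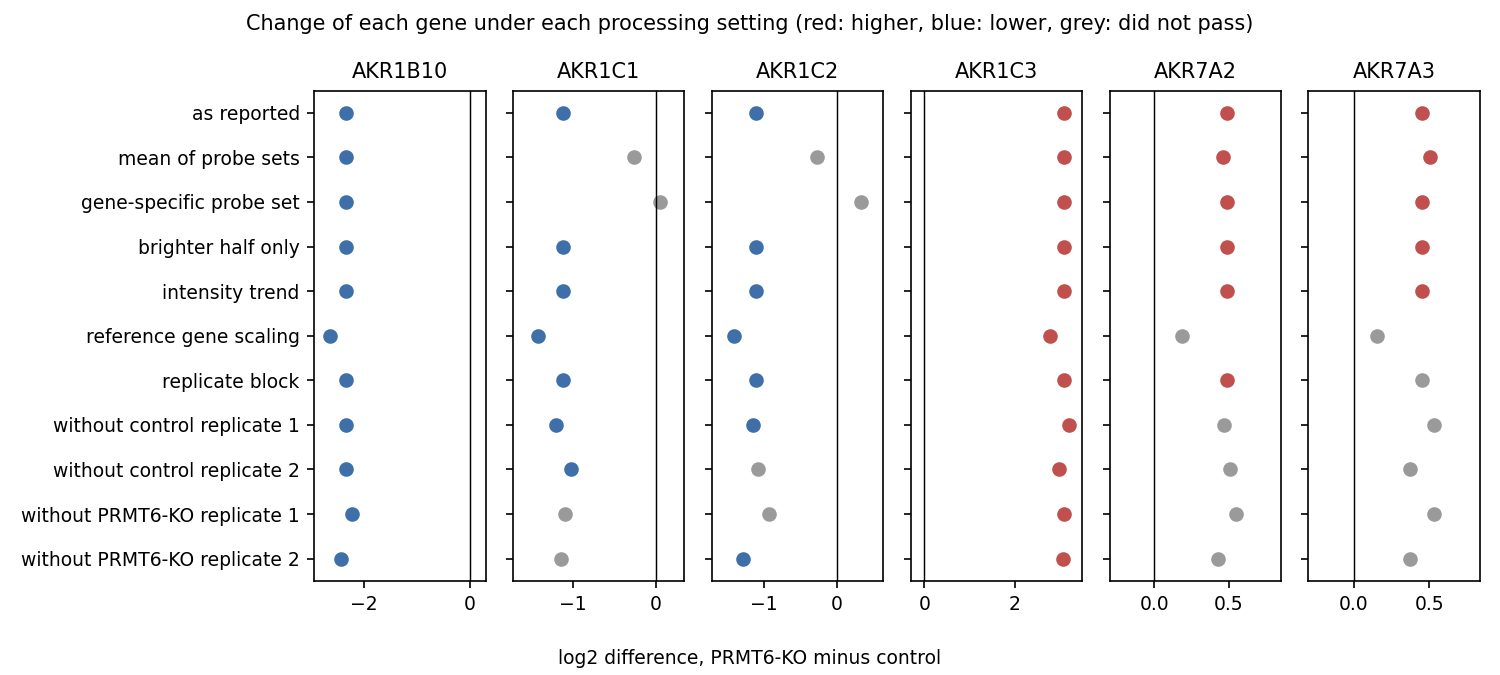
Log2 difference (PRMT6-KO minus control) of each measured aldo-keto reductase gene as reported and under 10 alternative settings; colour shows the limma call and each panel has its own horizontal scale. AKR1B10 and AKR1C3 keep their calls in every row, whereas AKR1C1 and AKR1C2 move to 0.04 and 0.34 with a gene-specific probe set. Those gene-specific probe sets were dim, with means over the arrays of 4.51 and 2.60, below the median gene.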

How the data were processed

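RNA of AGS cells was measured on 4 expression arrays (PRMT6-KO, n = 2; control, n = 2), grouped by sample title. The authors deposited 1 table of log2 intensities for 54613 probe sets. RMA and the affy package are named, without version, in the submitters' processing notes, and the scale follows from the range of values (array medians 5.01 to 5.02). RMA sets all arrays to nearly 1 distribution, so differences are relative to other transcripts, and it compresses dim signals. Array number limits the precision. Genes were named from probe sets with 1 symbol (41091; 1801 had several and 11721 were not listed), updated through Entrez numbers to RefSeq GRCh38.p14 (41037 matched).

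The group difference was fitted by limma 3.58.1 under R 4.3.3 (eBayes with a constant prior, no covariates), over 19775 genes and separately over all probe sets, with Benjamini-Hochberg adjustment and calls below 0.05; 2 residual degrees of freedom were joined by 3.27 from the prior. Differences are knockout minus control. The script was tested on simulated data. Promoter windows came from the RefSeq table for 7 of the 8 genes and were aligned with Biopython 1.88. Alternatives were the mean of probe sets, gene-specific probe set, the brighter genes alone, intensity trend, reference gene scaling (11 genes), replicate block and each array left out. Named genes were PRMT6, the family, the other superfamily genes and 3 measured protein-coding neighbours on each side. Up to 4 called genes per list with the largest change were also named. Others were named where a small count is spelled out, after their values were seen (NQO1 likewise). The members and lists were chosen with earlier results of these data known.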

Additional observations from a re-analysis of the deposited data

How the results depend on the processing

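AKR1B10 and AKR1C3 kept their direction and their call under all 10 alternatives in the fit over genes, though with a single probe set each the mean and gene-specific settings leave their values as they are. AKR1C3 was among the brighter genes only through its knockout level. The genes of the family that fell numbered 1 with the mean of probe sets and 1 with gene-specific probe sets, against 3 as reported. AKR1C1 and AKR1C2 then rest on other probe sets. With gene-specific ones their differences turned to 0.043 and 0.34. Those probe sets were dim, with means over the arrays of 4.51 and 2.60, so a fall near background could be missed. Under reference gene scaling 1 gene of the family rose, and 1112 genes rose and 9647 fell in all; of the family's probe sets 1 rose and 5 fell. In the lists it then called lower 3 other superfamily genes, 10 retinoid, 8 carbonyl, 12 steroid or prostaglandin and 5 polyol genes, and called higher 1 retinoid and 3 carbonyl genes. Testing only the brighter genes gave 2 retinoid, 5 steroid or prostaglandin and 1 polyol gene lower. An intensity trend gave 5 carbonyl and 5 steroid or prostaglandin genes lower. Calls also grew over all genes, with 2569 lower among the brighter genes alone and 2696 lower with the trend, against 2281 as reported. With 1 array left out, 1 gene of the family rose in each case and 1 to 3 fell, while 154 to 1371 genes rose and 354 to 1258 fell in all. Without knockout 2, 3 NRF2 regulators fell, and without either knockout array 0 carbonyl and 2 steroid or prostaglandin genes rose. With any 1 array left out none of the family's probe sets kept a call, and the share over all probe sets was not computed. Fewer arrays leave fewer degrees of freedom, and a lone array is assumed to vary like the other group. The shared replicate numbers are not stated to pair arrays, and deviations of same-numbered arrays correlated at 0.05 across genes. With a replicate block 2 genes of the family rose and 3 fell, and 2 of its probe sets rose. AKR7A3 (adjusted p = 0.059, limma), NFE2L2, PRMT6, HAGH, PRDX1, KRT8 and FAP lost their calls. Brightness over background could not be judged without detection calls, which limits the dim probe sets.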
